A study of Mus musculus with 4 samples.

Results

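The 49 genes described here encode the proteasome, its assembly chaperones and its regulators. They were chosen by symbol: Psm followed by a letter from a to g and a number. All 49 symbols of this form passed the filter of at least 1 FPKM in at least 1 of the 4 libraries, and they are 49 of 11183 genes that passed it among 17655 in the table. FPKM counts fragments per kilobase of transcript scaled to the depth of the library, so that levels can be set side by side between genes. Between libraries they can be compared only roughly, since their sum over all genes is not the same in each library. By role they are 7 α and 7 β subunits of the 20S core, 3 catalytic subunits of the immunoproteasome, 6 ATPases and 11 other subunits of the 19S particle, 3 chaperones of the 19S base, 4 chaperones of the 20S core, 5 activators or inhibitors, 2 subunits known from 1 tissue each, and Psmc3ip. Psmc3ip shares the form of the symbol but encodes a recombination factor and no subunit. The member nearest the filter was Psmb11, the thymus subunit, at 1.09 to 1.27 FPKM, and no matching symbol lay below it.

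The proteasome degrades proteins that carry ubiquitin chains. In its barrel-shaped 20S core, outer α rings gate the entry and inner β rings hold the proteolytic sites. The 19S particle caps the core: its ATPases unfold the substrate and its other subunits bind and remove the ubiquitin. In macrophages exposed to interferon, the catalytic β subunits can be replaced by those of the immunoproteasome, whose products are loaded on MHC class I molecules after transport by TAP1 and TAP2.

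Total RNA was sequenced from RAW264.7 cells, an established mouse macrophage line, in 4 libraries. All were permeabilized with digitonin, and the incubation lasted 24 h at passages 2 to 10 in DMEM with 25 mM glucose and 10% FBS. The ManGn library came from cells given 10 µM of the Manβ1-4GlcNAc disaccharide in water, and its control was ultrapure water. The fOS library came from cells given 10 µM of the free oligosaccharide pool of Trex1-/- cells, and its control was water carried through a mock extraction of fOS, called mock below. The comparison asks which transcripts differ when permeabilized macrophages meet the disaccharide or the pool. With 1 library per condition there is no replicate check on any difference below, no standard error and no p-value. The 95% intervals given with folds are exact binomial intervals on estimated reads and cover counting error only.

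The libraries were of like depth, at an estimated 9930000 to 10600000 fragments, and held 10405 to 10663 genes at 1 FPKM or more. The 20 most abundant genes took 12.8 to 16.0% of the summed FPKM. Macrophage markers were present in every library, among them Cd68 at 1039 to 1324 FPKM and Csf1r at 256 to 526 FPKM, while Epcam was listed at 0 and Col1a1 reached at most 0.14 FPKM. Of the 49 members, 45 had a transcript length from which reads could be estimated, and 43 had at least 100 reads in every library.

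The proteasome genes were abundant in all 4 libraries. Their median was 93.3 FPKM with ManGn and 109.7 with fOS, against 71.3 with mock and 52.6 with water. That median lay at the 92.8th percentile of the genes tested with ManGn and the 93.5th with fOS, against the 90.7th with mock and the 87.2nd with water. Summed over the 31 subunits of the 20S core and the 19S particle, the level was 3943 FPKM with ManGn and 4232 with fOS, against 3079 with mock and 2670 with water. Both ligand libraries thus lay above both controls. The sum over all genes was 488321 FPKM with ManGn and 484866 with fOS, against 496835 with mock and 540141 with water. FPKM are scaled to the depth of each library, so a difference in total RNA per cell would not show in them. In bulk RNA, more RNA per cell and a larger share of cells with it cannot be told apart.

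**Figure D1:**
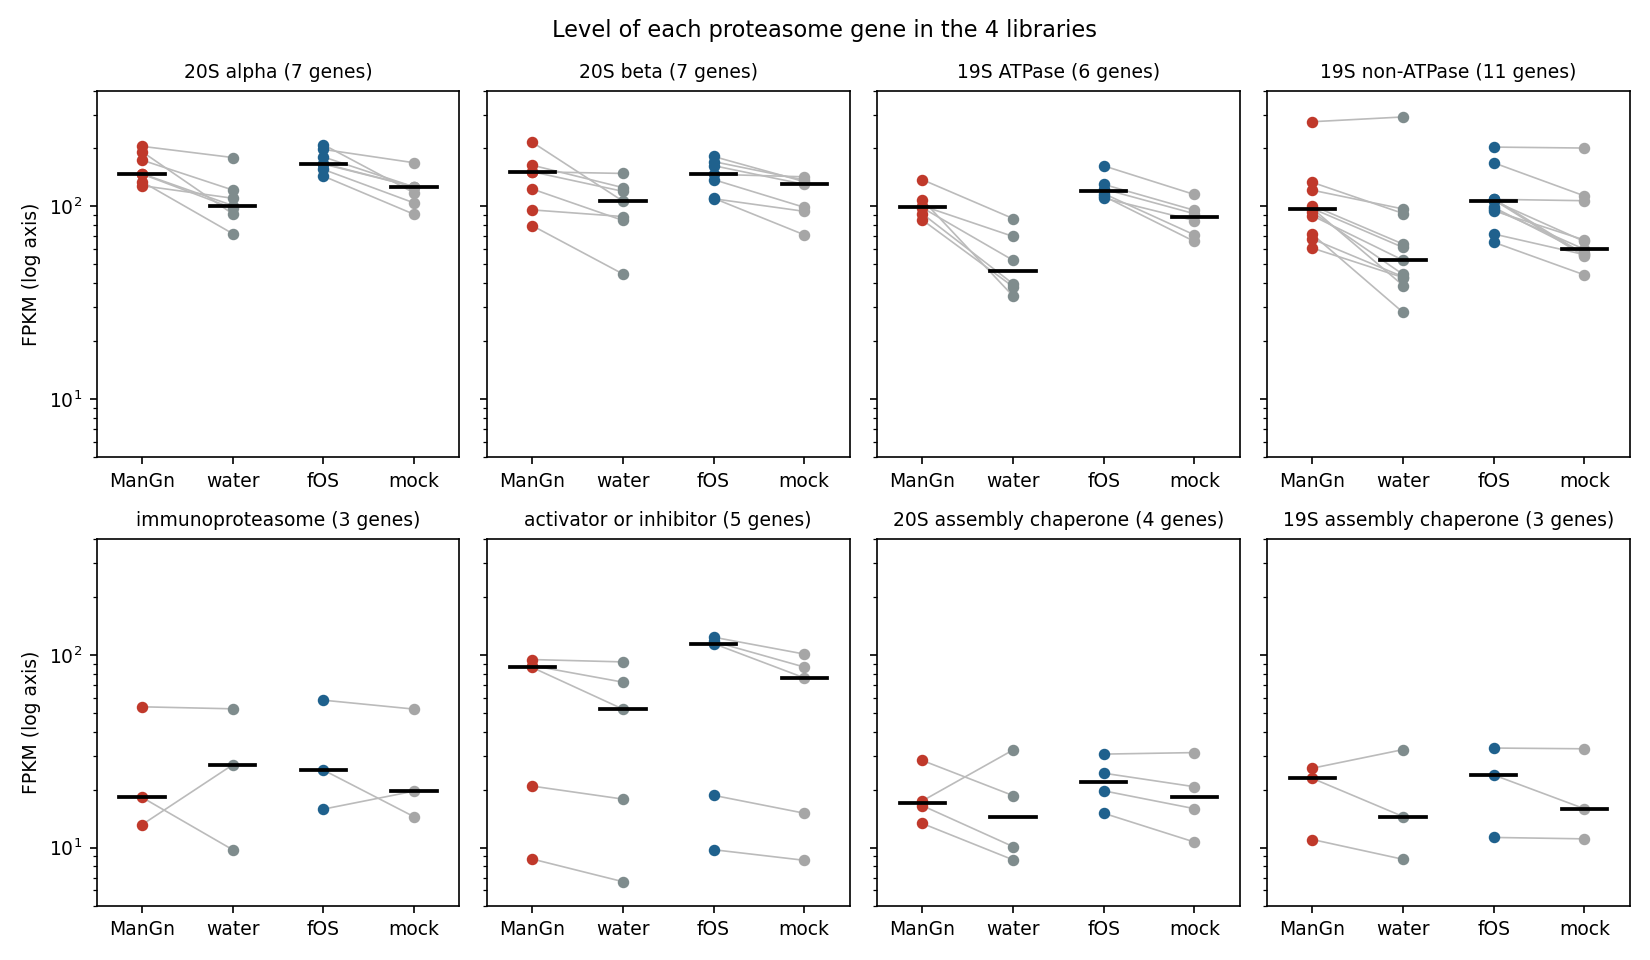
FPKM (log axis) of each proteasome gene in the ManGn, water, fOS and mock libraries, by role; each dot is 1 gene, grey lines join a ligand library to its own control and black bars are medians of the group (Psma8, Psmb11 and Psmc3ip are not drawn). The median of the 19S ATPases stood at 99.6 FPKM with ManGn, against 46.2 with water, while the lines of the immunoproteasome genes run in both directions.

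With ManGn, 35 of the 49 genes were at least 25% higher than with water and Psmb9 and Psmg4 were at least 20% lower. These thresholds, at the same distance from 0 on the log2 scale, were passed by 33.2% and 28.3% of all genes tested. The median log2 ratio of the members was 0.55, a 1.46-fold difference, beside 0.050 over all genes. Log2 ratios are of FPKM plus 0.1. At 2-fold, 8 genes were higher (Psma4, Psmb6, Psmc2, Psmc4, Psmc5, Psmd1, Psmd6 and Psmd12), where 9.44% of all genes were, and Psmb9 was lower, where 7.37% of all genes were. Among the 31 core and 19S subunits 26 were at least 25% higher, none was at least 20% lower, and the median was 0.65.

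With fOS, 30 of 49 were at least 25% above mock, against 21.6% of all genes tested, and Psma8 was the one at least 20% lower, against 26.7%. The median log2 ratio was 0.43, a 1.35-fold difference, beside -0.024 over all genes. No member reached 2-fold in either direction, where 2.67% of all genes were higher and 6.41% lower. Psmd1 came nearest, at 0.97. Of the 31 core and 19S subunits 24 were at least 25% higher and all 31 ratios were above 0, with a median of 0.49. The 2 ligand comparisons share no library.

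The 2 controls, neither with ligand, differed as well. With mock, 21 members were at least 25% above water, beside 33.8% of all genes, and 3 were at least 20% lower (Psmb9, Psmd8 and Psmg4), beside 25.7%. Scaled to the same upper quartile, 13 members were higher, beside 28.5% of all genes, and 5 lower, beside 30.9%. Centred on the median of all genes, 14 were higher, beside 29.9%, and 4 lower, beside 29.5%. Without scaling the median was 0.30, beside 0.074 over all genes. Psmc4 and Psmd6 were at least 2-fold higher, where 9.24% of all genes were, and none was 2-fold lower, where 6.69% were. The 19S ATPases had the largest median of any group in this comparison of controls, 0.79. The size of a ligand difference therefore moved with the control chosen: ManGn over mock had a median of 0.25, with 18 members at least 25% higher beside 19.2% of all genes, and 2 lower (Psmb9 and Psmd10) beside 23.2%. For fOS over water the median was 0.70, with 37 higher beside 37.3% of all genes, 4 lower (Psmb9, Psmd8, Psma8 and Psmg4) beside 33.4%, and 14 at least 2-fold higher beside 14.1%. These cross comparisons share libraries with the others.

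Direction held against both controls for most members. In 38 of 49 genes both ligand libraries lay above both controls, where 21.3% of all genes tested did. In 1 member, Psmb9, both lay below, where 21.7% of all genes did. Among the core and 19S subunits 29 of 31 were above both controls, with Psmb1 and Psmd8 as the exceptions. At least 25% higher with each ligand over its own control were 28 of 49 members and 23 of the 31 core and 19S subunits, beside 13.6% of all genes. The fOS library was the highest of the 4 for 35 members (71.4%, beside 31% of all genes), and water was the lowest for 37 (75.5%, beside 39%). The order fOS, ManGn, mock, water from high to low held for 29 of the 49.

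**Figure D2:**
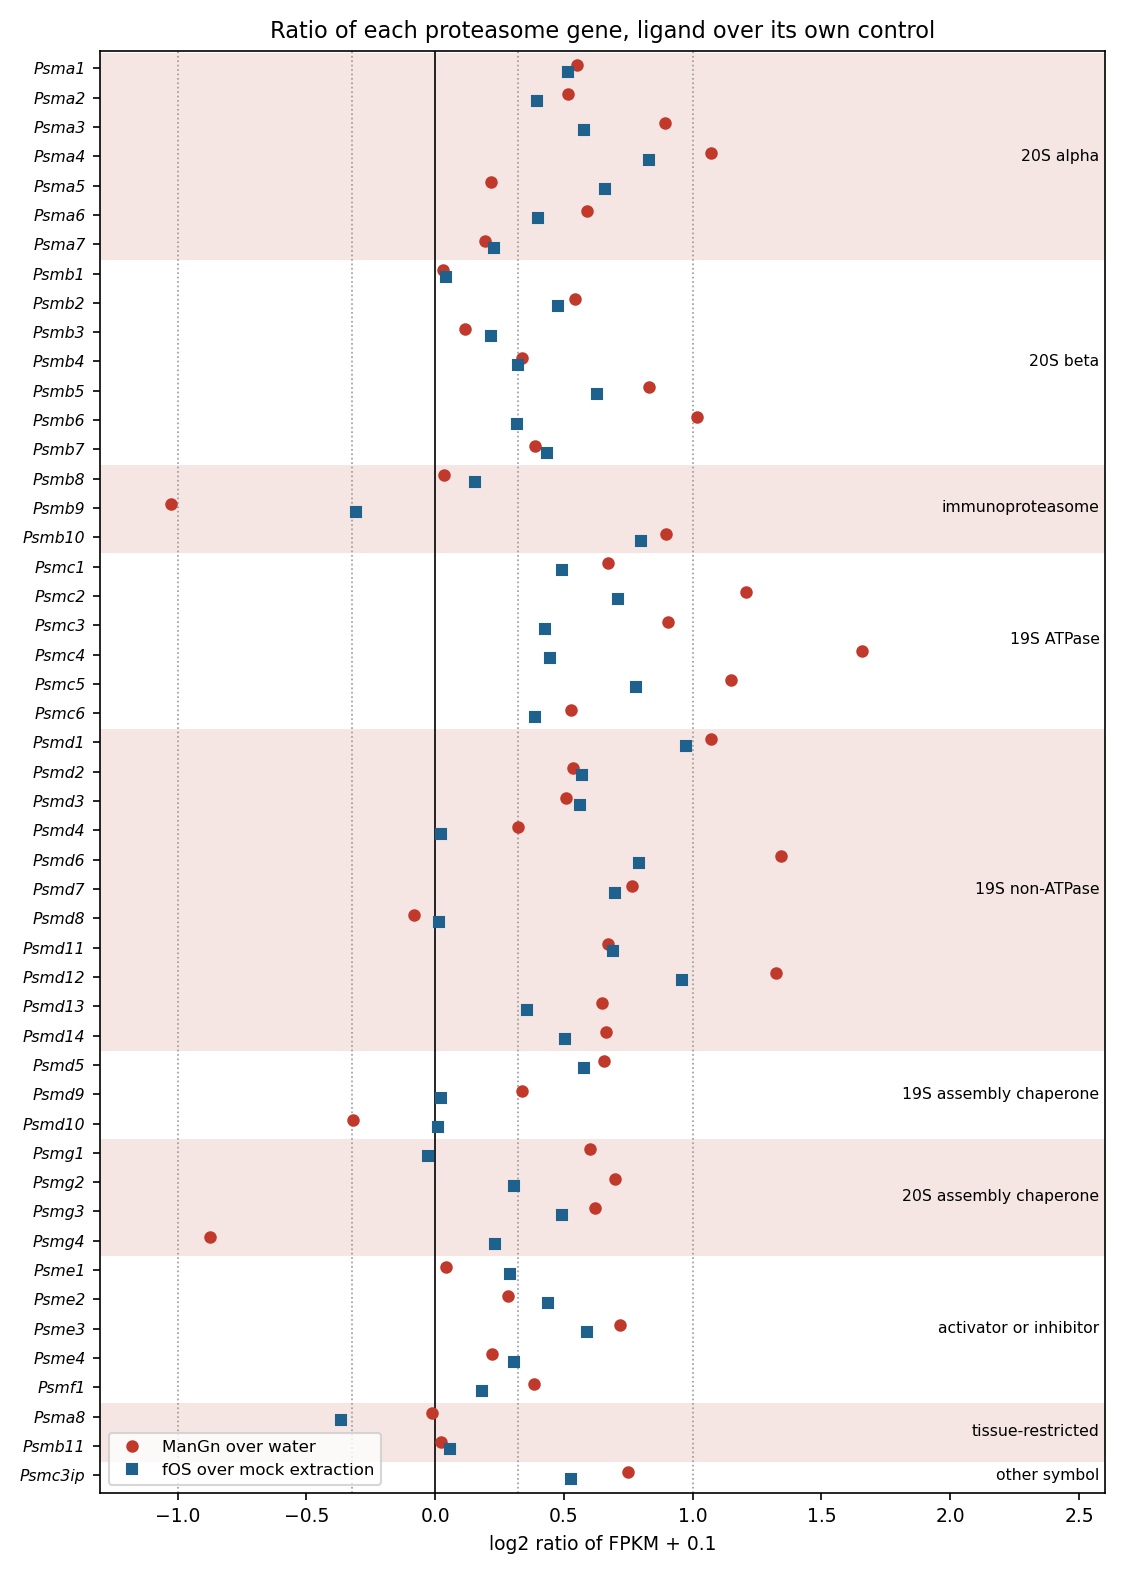
Log2 ratio of FPKM plus 0.1 for each of the 49 genes, ManGn over water (red circles) and fOS over mock (blue squares), by role; dotted lines mark 25% higher, 20% lower and 2-fold. Most genes lie to the right of 0 in both comparisons; Psmb9 lies to the left in both, and Psmc4 is farthest right for ManGn at 1.66.

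**Figure D3:**
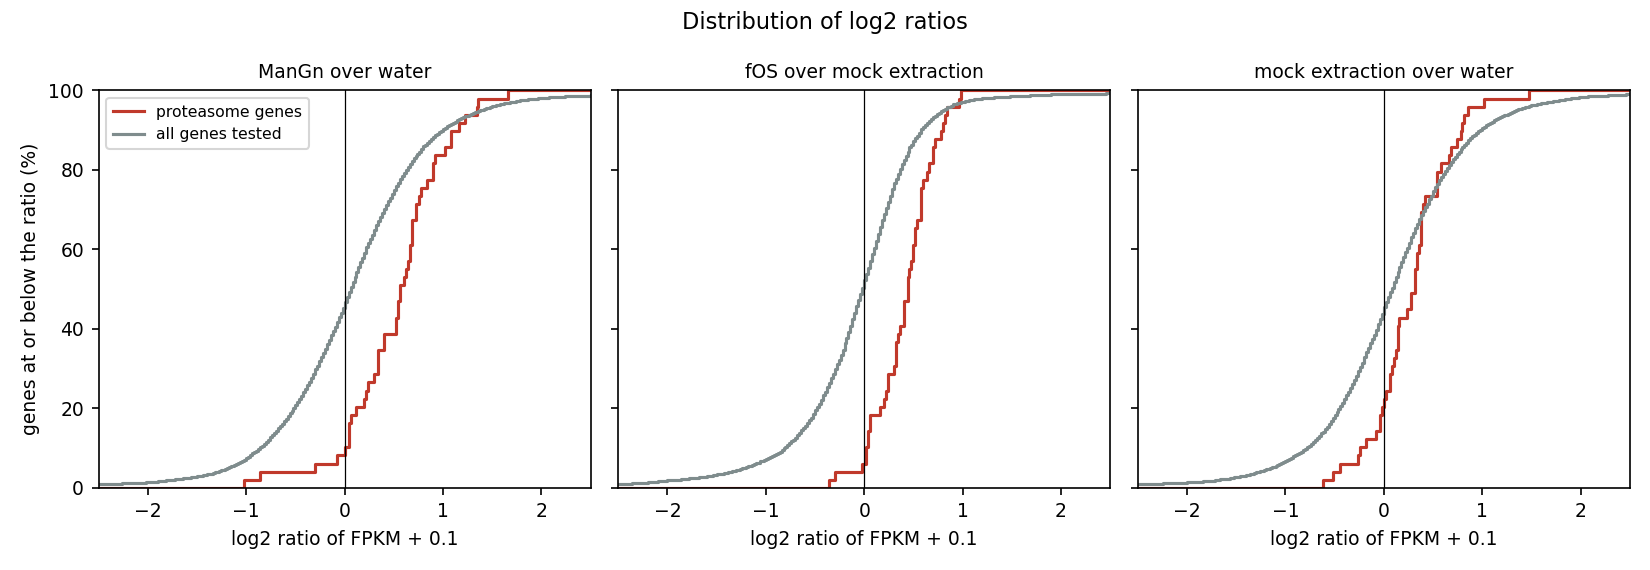
Share of genes (%) at or below each log2 ratio of FPKM plus 0.1, for the 49 proteasome genes (red) and all 11183 genes tested (grey), in the ligand comparisons and in the comparison of controls. The red curves lie to the right of the grey ones at their medians, 0.55, 0.43 and 0.30, beside 0.050, -0.024 and 0.074 for all genes.

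Level and transcript length moved with the ratios over all genes, and the members were set beside genes alike in either. Of 1336 other genes with a mean of 50 to 300 FPKM, 35.4% were at least 25% higher with ManGn than with water and the median log2 ratio was 0.089. The 35 members at that level had a median of 0.59 and 27 of them were as much higher. For fOS over mock, 31.2% of those other genes were as much higher and their median was 0.14, beside 26 of 35 members and a median of 0.48. For mock over water the share was 31.7% and the median 0.059, beside 15 of 35 members and 0.30. By length, the median of other genes for ManGn over water was -0.096 below 1000 bases and 0.11 from 2500 bases on, whereas the members' medians were 0.58 in both classes. For mock over water other genes had medians of -0.17 in the short class and 0.13 in the long one, and members 0.27 and 0.22.

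Across members, the log2 ratios of the 2 ligands over their own controls correlated with a Pearson coefficient of 0.74 and a Spearman coefficient of 0.77 (49 genes), and with 0.69 and 0.70 over the 31 core and 19S subunits. Over all genes tested the correlations were 0.31 and 0.48. Members of one complex are not independent points, and each axis rests on 1 library pair.

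Many mouse and human proteasome promoters are bound by NFE2L1 and NFE2L2, transcription factors that recognise the antioxidant response element, whose core is TGANNNNGC. RefSeq promoters, from 250 bases before to 50 bases after the transcription start on GRCm38.p6, were matched for 41 of the 49 genes. The following stretches are printed for 5 of the 8 genes at least 2-fold higher with ManGn and for Psmb5, the chymotrypsin-like subunit, since each holds this motif before its start. The other 3 of the 8 (Psmc4, Psmc5 and Psmd6) held no match in this window. The stretches read 5′ to 3′ on the strand of the gene, and capitals mark matches to TGANNNNGC, which was searched on both strands.
Psma4, chr9:54950707-54950766, plus strand: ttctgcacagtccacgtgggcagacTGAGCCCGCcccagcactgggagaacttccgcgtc
Psmb5, chr14:54618008-54618067, minus strand: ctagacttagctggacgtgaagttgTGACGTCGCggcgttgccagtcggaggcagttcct
Psmb6, chr11:70525297-70525356, plus strand: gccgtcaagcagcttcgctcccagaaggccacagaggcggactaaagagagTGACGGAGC
Psmc2, chr5:21786601-21786660, plus strand: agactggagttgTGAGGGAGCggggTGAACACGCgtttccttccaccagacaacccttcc
Psmd1, chr1:86064370-86064429, plus strand: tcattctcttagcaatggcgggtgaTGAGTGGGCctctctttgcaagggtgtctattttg
Psmd12, chr11:107479468-107479527, plus strand: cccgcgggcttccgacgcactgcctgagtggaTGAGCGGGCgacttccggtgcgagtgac

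The printed matches of Psmb5 and Psmb6 are also matches to the stricter TGACNNNGC. Of the 25 core and 19S genes with a promoter, 14 held TGANNNNGC (56%). It is short enough that 45% of 27025 genes with a RefSeq promoter held it too. Both shares count matches anywhere in the window, also past the start, while the printed matches lie before it. No share over all genes was counted for matches before the start alone. TGACNNNGC was in 4 of the 25 (16%), beside 14% of all genes. The median log2 ratio for ManGn over water was 0.62 in core and 19S genes with TGANNNNGC and 0.67 in those without. For fOS over mock the medians were 0.39 and 0.52. The stricter TGACNNNGC split the genes the other way for ManGn over water, with medians of 0.92 in the 4 genes that hold it and 0.65 in the rest, and for fOS over mock the medians were 0.51 and 0.50. Of other short motifs, the GC box GGGCGG was in 60% of the 25 promoters, beside 38.2% of all genes, and CCAAT in 40%, beside 41.1%. A match is a description of letters, not of binding.

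The α subunits of the core, which form its outer rings, followed one pattern: all 7 lay above both controls with both ligands. Their median was 148 FPKM with ManGn, against 101 with water, and 167 with fOS, against 126 with mock. Psma4 (Entrez Gene 26441) differed most between ligands and controls: it had 192 FPKM with ManGn and 209 with fOS, against 118 with mock and 91.5 with water. ManGn over water was 2.10-fold (95% interval 1.95 to 2.26) and fOS over mock 1.78-fold (95% interval 1.67 to 1.90). The ligand libraries lay far from the controls here, and the controls were 0.36 apart on the log2 scale. Psma3 had 134 FPKM with ManGn and 156 with fOS, against 104 with mock and 72.3 with water, with log2 ratios of 0.89 for ManGn and 0.58 for fOS. Psma5 was the lowest α subunit in 3 of the libraries and, with Psma7, one of 2 with mock below water, at 128 FPKM with ManGn and 144 with fOS, against 91.1 with mock and 110.4 with water. Its log2 ratio was 0.66 for fOS over mock but 0.22 for ManGn over water. Psma7, the most abundant α subunit in the ManGn library and in both controls, had 205 FPKM with ManGn and 198 with fOS, against 169 with mock and 179.5 with water, and was the α subunit with the smallest ratio for ManGn over water, 0.19. The other 3, Psma1, Psma2 and Psma6, had log2 ratios of 0.52 to 0.59 for ManGn and 0.39 to 0.52 for fOS.

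The β subunits, among them those with the proteolytic sites, showed smaller ratios, with a median log2 ratio of 0.39 between ManGn and water and one of 0.32 between fOS and mock. Psmb6 (Entrez Gene 19175), which carries the caspase-like site, had 216 FPKM with ManGn and 171 with fOS, against 137 with mock and 107 with water. ManGn was the highest library for it, 2.02-fold (95% interval 1.86 to 2.20) over water, and fOS was 1.246-fold (95% interval 1.15 to 1.35) over mock. Psmb5, the chymotrypsin-like subunit and target of clinical proteasome inhibitors, was the least abundant β subunit in 3 of the libraries, with 79.5 FPKM with ManGn and 110.5 with fOS, against 71.3 with mock and 44.6 with water. The folds were 1.78 (95% interval 1.57 to 2.02) for ManGn and 1.55 (95% interval 1.40 to 1.71) for fOS, and the fold of mock over water was 1.60 (95% interval 1.41 to 1.81). Psmb7, the trypsin-like subunit, had 164 FPKM with ManGn and 182 with fOS, against 135 with mock and 125 with water. All 3 catalytic genes had both ligands above both controls.

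Among β subunits without a catalytic site, Psmb1 did not separate the libraries. It had 151 FPKM with ManGn and 147 with fOS, against 143 with mock and 148 with water, and both of its folds had intervals that include 1: 1.02 (95% interval 0.966 to 1.08) for ManGn and 1.03 (95% interval 0.976 to 1.09) for fOS. Psmb3 had 96.02 FPKM with ManGn and 109.7 with fOS, against 94.4 with mock and 88.7 with water, with log2 ratios of 0.11 and 0.22 that stayed under 25%. Psmb2 was 0.54 for ManGn and 0.48 for fOS on the log2 scale. Psmb4 was 0.34 and 0.32, the fOS value lying just under the 25% threshold.

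The 6 ATPases of the 19S base, which form the ring that unfolds substrates, were the group with the largest median for ManGn over water, 1.03. All 6 were at least 25% higher with each ligand over its own control, beside 13.6% of all genes. Their median was 66.5% of that of the 20S subunits with ManGn, 72.9% with fOS and 69.7% with mock, against 44.4% with water. Psmc4 (Entrez Gene 23996) had the largest ratio of all members for ManGn over water, with 108 FPKM with ManGn and 130.3 with fOS, against 95.6 with mock and 34.3 with water. ManGn stood 3.16-fold (95% interval 2.86 to 3.51) above water, but only 0.18 on the log2 scale above mock, and mock stood 2.79-fold (95% interval 2.51 to 3.10) above water. The water library is thus the one that stands apart for Psmc4, while fOS over mock was 1.36-fold (95% interval 1.27 to 1.46).

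Psmc2 (Entrez Gene 19181) had 91.7 FPKM with ManGn and 117 with fOS, against 71.3 with mock and 39.7 with water, with folds of 2.31 (95% interval 2.11 to 2.52) for ManGn and 1.64 (95% interval 1.53 to 1.76) for fOS. Psmc5 (Entrez Gene 19184) had 85.1 FPKM with ManGn and 113 with fOS, against 65.9 with mock and 38.4 with water, with folds of 2.22 (95% interval 1.997 to 2.47) and 1.72 (95% interval 1.58 to 1.87). Both genes kept the order fOS, ManGn, mock, water. Psmc1, the most abundant ATPase, had 138 FPKM with ManGn and 163 with fOS, against 115 with mock and 86.6 with water. Psmc6 had 101 FPKM with ManGn and 111 with fOS, against 84.5 with mock and 69.9 with water, with log2 ratios of 0.53 for ManGn and 0.39 for fOS, the smallest of the ATPases in both. Psmc3 had 98.5 FPKM with ManGn and 123 with fOS, against 91.7 with mock and 52.6 with water, with log2 ratios of 0.90 and 0.43.

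The other 19S subunits had a median log2 ratio of 0.66 between ManGn and water and one of 0.57 between fOS and mock. Of 11 genes 10 and 9 were at least 25% higher, beside 33.2% and 21.6% of all genes. Psmd12 (Entrez Gene 66997), a subunit of the lid, had 97.6 FPKM with ManGn and 109.6 with fOS, against 56.4 with mock and 38.9 with water. Its folds were 2.51 (95% interval 2.30 to 2.74) for ManGn and 1.94 (95% interval 1.81 to 2.09) for fOS, and with ManGn it was also the member highest over mock, at 0.79 on the log2 scale. Psmd1 (Entrez Gene 70247), the large scaffold of the base, had 93.3 FPKM with ManGn and 108 with fOS, against 55.1 with mock and 44.4 with water. Mock was 0.31 above water on the log2 scale, and the folds were 2.10 (95% interval 1.97 to 2.24) for ManGn and 1.97 (95% interval 1.86 to 2.09) for fOS. Psmd6 (Entrez Gene 66413), also of the lid, had 71.6 FPKM with ManGn and 98.9 with fOS, against 57.1 with mock and 28.2 with water. As for Psmc4, water was far below the rest: mock was 2.03-fold (95% interval 1.79 to 2.29) over water, ManGn 2.54-fold (95% interval 2.26 to 2.87) over water and fOS 1.73-fold (95% interval 1.59 to 1.89) over mock.

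Psmd8 went against the group. This lid subunit was the most abundant member in the ManGn and both control libraries, with 275 FPKM with ManGn and 203 with fOS, against 201 with mock and 292 with water. Water was its highest library and mock its lowest, so that neither ligand separated from the controls; the log2 ratios were -0.082 for ManGn and 0.017 for fOS. Psmd3, the lowest of the group with ManGn, fOS and mock, had 60.8 FPKM with ManGn and 65.2 with fOS, against 44.2 with mock and 42.8 with water, with log2 ratios of 0.51 and 0.56. Psmd14, the deubiquitinase of the lid, was 0.66 and 0.50 on the log2 scale. Its partner Psmd7 had 89.5 FPKM with ManGn and 107 with fOS, against 65.9 with mock and 52.6 with water, with log2 ratios of 0.76 and 0.70. Psmd4, a ubiquitin receptor, was 0.32 for ManGn and only 0.024 for fOS. Psmd2, Psmd11 and Psmd13 lay between 0.54 and 0.67 for ManGn and between 0.36 and 0.69 for fOS.

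The 31 core and 19S genes were also more alike in level with each ligand than with its own control. The coefficient of variation of their FPKM was 38.0% with ManGn, against 61.5% with water, and 28.0% with fOS, against 37.3% with mock. With ManGn they were thus no more alike than with mock, and the water library stood apart. A single abundant gene weighs on this measure. Psmd8 had 292 FPKM with water, where the median of the 31 genes was 84.65, and 275 with ManGn, where it was 121. The coefficient was not computed without Psmd8. The median of the 19S subunits was 65.2% of that of the 20S subunits with ManGn, against 50.7% with water. It was 66.6% with fOS, against 53.0% with mock.

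The 3 immunoproteasome genes went 3 ways. Psmb10 (Entrez Gene 19171), the trypsin-like subunit, had 18.2 FPKM with ManGn and 25.3 with fOS, against 14.5 with mock and 9.75 with water. Both ligands were above both controls. Over its own control the fold was 1.87 (95% interval 1.501 to 2.34) for ManGn and 1.75 (95% interval 1.46 to 2.09) for fOS. ManGn over mock was 1.26 (95% interval 1.04 to 1.53) and mock over water 1.48 (95% interval 1.18 to 1.87). Psmb8 (Entrez Gene 16913), the chymotrypsin-like subunit and the most abundant of the 3, had 53.8 FPKM with ManGn and 58.3 with fOS, against 52.4 with mock and 52.6 with water. Its libraries lay within a narrow span, and its folds were 1.02 (95% interval 0.931 to 1.13) for ManGn and 1.11 (95% interval 1.01 to 1.22) for fOS. Psmb9 (Entrez Gene 16912), which takes the place of Psmb6, had 13.2 FPKM with ManGn and 15.9 with fOS, against 19.7 with mock and 26.9 with water. It was the one member with both ligands below both controls, with folds of 0.489 (95% interval 0.407 to 0.587) for ManGn, 0.807 (95% interval 0.671 to 0.965) for fOS, and 0.730 (95% interval 0.620 to 0.857) for mock over water.

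Set against the constitutive subunit that each replaces, the pairs differed. Psmb8 was 67.7% of Psmb5 with ManGn, against 118% with water, and 52.8% with fOS, against 73.4% with mock. Here Psmb8 stayed within 52.4 to 58.3 FPKM and Psmb5 was higher with both ligands. Psmb9 was 6.11% of Psmb6 with ManGn, against 25.3% with water, and 9.27% with fOS, against 14.3% with mock. Psmb10 went the other way, at 11.1% of Psmb7 with ManGn, against 7.78% with water, and 13.9% with fOS, against 10.7% with mock. Summed over the 3 pairs, immunoproteasome transcripts were 18.6% of the constitutive ones with ManGn, against 32.3% with water, and 21.5% with fOS, against 25.2% with mock. The immunoproteasome sums were 85.2 FPKM with ManGn and 99.4 with fOS, against 86.5 with mock and 89.2 with water. The constitutive sums differed more, at 459 FPKM with ManGn and 463 with fOS, against 343 with mock and 277 with water.

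**Figure D4:**
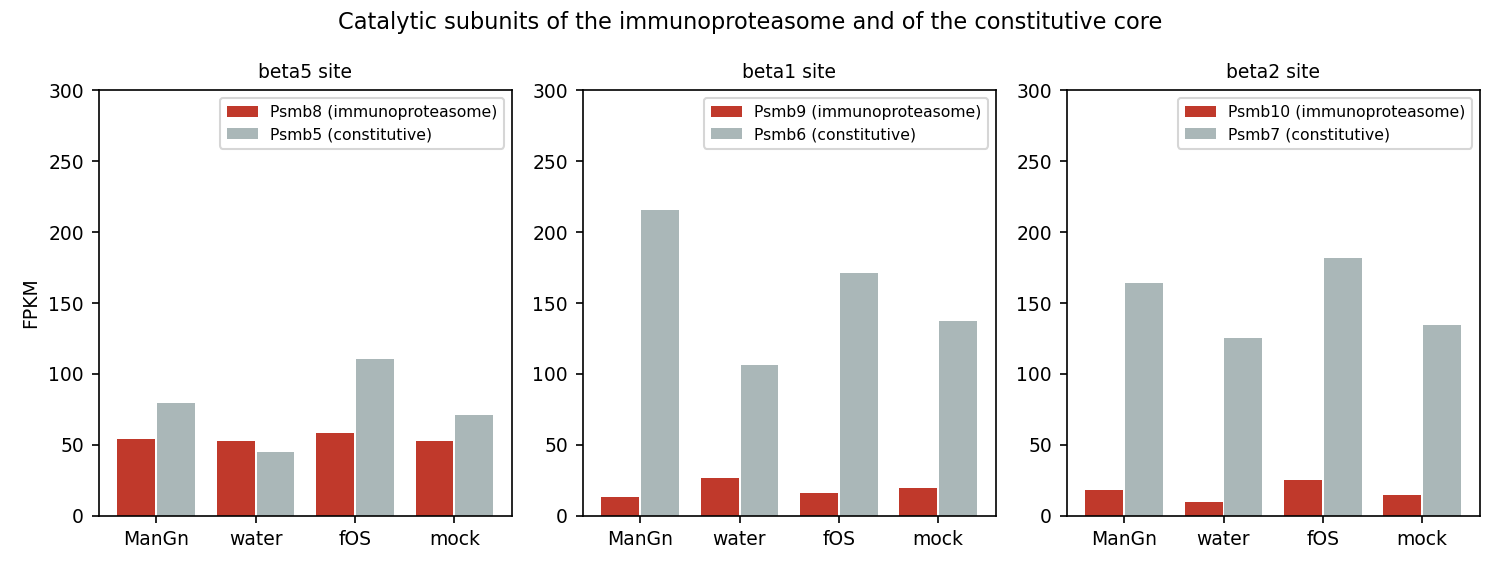
FPKM of the immunoproteasome subunit (red) and of the constitutive subunit that it replaces (grey) at each of the 3 proteolytic sites, in the ManGn, water, fOS and mock libraries. Psmb8 stays between 52.4 and 58.3 FPKM while Psmb5 spans 44.6 to 110.5 FPKM, and Psmb9 is lowest with ManGn at 13.2 FPKM.

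Psmb9 lies head to head with Tap1, which encodes a subunit of the peptide transporter, and the starts of both genes are 225 bases apart on GRCm38.p6. That stretch, which serves both genes and is therefore shown whole, is given from RefSeq on the strand of Psmb9, with the GC box GGGCGG in capitals.
Psmb9 and Tap1, chr17:34187331-34187555, minus strand: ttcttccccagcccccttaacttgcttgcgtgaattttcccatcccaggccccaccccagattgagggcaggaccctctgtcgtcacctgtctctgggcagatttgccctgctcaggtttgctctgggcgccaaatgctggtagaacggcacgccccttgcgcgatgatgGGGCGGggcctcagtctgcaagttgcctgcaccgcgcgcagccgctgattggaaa
It holds 1 GC box, which overlaps a match to TGANNNNGC at -60 from the Psmb9 start. It holds no match on either strand to a short form of the interferon-stimulated response element, which 3.99% of all genes with a RefSeq promoter held. Tap1 had 8.33 FPKM with ManGn and 11.7 with fOS, against 12.98 with mock and 27.4 with water. Like Psmb9, it had both ligands below both controls and water as the highest library. For ManGn over water the log2 ratio was -1.71 for Tap1 and -1.03 for Psmb9. For fOS over mock it was -0.15 for Tap1 and -0.31 for Psmb9.

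Among the activators, Psme1 and Psme2 encode the subunits of the interferon-inducible PA28 cap, which opens the core without ATP. Psme1 had 94.7 FPKM with ManGn and 124 with fOS, against 101 with mock and 92.1 with water, so that ManGn lay between the controls, with a log2 ratio of 0.041 over water and 0.29 for fOS over mock. Psme2 had 88.1 FPKM with ManGn and 118 with fOS, against 86.6 with mock and 72.3 with water, with log2 ratios of 0.28 and 0.44. Its reads may be shared with the copy Psme2b, and its level is uncertain to that extent. The level of Psme1 was 108% of that of Psme2 with ManGn and 105% with fOS, against 117% with mock and 127% with water. Psme3, whose product forms a cap in the nucleus, had 86.1 FPKM with ManGn and 115 with fOS, against 76.1 with mock and 52.4 with water. It was the activator with the largest folds, 1.64 (95% interval 1.54 to 1.76) for ManGn and 1.51 (95% interval 1.42 to 1.59) for fOS.

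Psme4, the large PA200 activator, had 20.9 FPKM with ManGn and 18.7 with fOS, against 15.1 with mock and 17.9 with water, with both ligands above both controls and log2 ratios of 0.22 and 0.31. Psmf1, named as a proteasome inhibitor, was the lowest of the regulators, with 8.73 FPKM with ManGn and 9.76 with fOS, against 8.60 with mock and 6.66 with water. Its folds were 1.31 (95% interval 1.11 to 1.55) for ManGn and 1.13 (95% interval 0.976 to 1.32) for fOS. Of the 5 genes, 2 were at least 25% higher in each ligand comparison: Psme3 and Psmf1 with ManGn, Psme2 and Psme3 with fOS. Of all genes 33.2% were with ManGn and 21.6% with fOS.

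The assembly chaperones were scarcer in the median than the subunits they assemble. The 4 chaperones of the core had a median of 17.0 FPKM with ManGn and 22.0 with fOS, against 18.3 with mock and 14.4 with water. Psmg1, which pairs with Psmg2 on the α ring, had 28.4 FPKM with ManGn and 30.6 with fOS, against 31.2 with mock and 18.6 with water. Water was its low library, so that its log2 ratio was 0.60 for ManGn but -0.026 for fOS. Psmg2 had log2 ratios of 0.70 and 0.31. Psmg3, the least abundant, had 13.4 FPKM with ManGn and 15.1 with fOS, against 10.7 with mock and 8.65 with water, with both ligands above both controls and folds of 1.54 (95% interval 1.14 to 2.08) and 1.41 (95% interval 1.08 to 1.86). Its partner Psmg4 had 17.5 FPKM with ManGn and 24.4 with fOS, against 20.7 with mock and 32.1 with water. Water was the highest library for Psmg4, and its log2 ratio was -0.87 with ManGn and 0.23 with fOS, each over its own control, so the 2 partners lay on opposite sides of 0 for ManGn.

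Of the 3 chaperones of the 19S base, Psmd5 was at least 25% higher with each ligand, at 0.65 and 0.58 on the log2 scale. Psmd9 had 11.02 FPKM with ManGn and 11.3 with fOS, against 11.1 with mock and 8.70 with water, so that mock lay between the ligands and water was low. Psmd10, known as gankyrin, had 25.9 FPKM with ManGn and 32.9 with fOS, against 32.6 with mock and 32.3 with water. Here ManGn alone was low, with a log2 ratio of -0.32 over water, just short of 20% lower, while fOS differed from mock by 0.013.

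The 2 tissue-restricted subunits did not follow the core. Psma8, an α subunit of the testis, had 11.2 FPKM with ManGn and 8.53 with fOS, against 11.01 with mock and 11.3 with water. The fOS library was its lowest, at 0.775-fold (95% interval 0.622 to 0.966) of mock, and ManGn was 0.992-fold (95% interval 0.809 to 1.22) of water. Its product is close in sequence to that of the abundant Psma7, so reads could have been shared between them. Psmb11 was near the filter with 46 to 54 estimated reads in a library, and its intervals include 1. Psmc3ip, the recombination factor, had 16.2 FPKM with ManGn and 24.1 with fOS, against 16.7 with mock and 9.59 with water. ManGn lay below mock and above water for it, and its log2 ratio was 0.75 for ManGn over water, 0.53 for fOS over mock.

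The 32 listed genes outside the symbol pattern showed no common direction when pooled. They join genes of the ubiquitin-proteasome pathway with 7 inducers and partners of the immunoproteasome. Of 32 listed, 13 were at least 25% higher and 10 at least 20% lower with ManGn than with water, beside 33.2% and 28.3% of all genes. The median log2 ratio was 0.16. For fOS over mock these counts were 10 and 5, beside 21.6% and 26.7% of all genes, with a median of 0.11. The 7 inducers and partners held 5 of the 10 lower genes for ManGn and 2 of the 5 for fOS. In each comparison they held 1 of the higher genes. The background shares are those given above for all genes. The proteasome subunits without a Psm symbol differed between them. Adrm1, a ubiquitin receptor of the 19S particle, had 89.8 FPKM with ManGn and 96.8 with fOS, against 58.5 with mock and 44.1 with water, and its log2 ratios were 1.02 and 0.73. Shfm1, a small lid subunit, had 298 FPKM with ManGn and 327 with fOS, against 348 with mock and 363 with water. Both ligands were thus below both controls for it, with log2 ratios of -0.28 and -0.091. Pomp, the chaperone of core maturation, had 129.9 FPKM with ManGn and 126.5 with fOS, against 95.8 with mock and 107 with water.

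The deubiquitinases and shuttles that deliver substrates were the list nearest to the subunits. Of 9 genes, 7 were at least 25% higher with ManGn than with water (median 0.65), beside 33.2% of all genes. For fOS over mock 4 were (Uchl5, Usp14, Rad23b and Ubqln2, median 0.29), beside 21.6%. None was at least 20% lower in either comparison, beside 28.3% and 26.7% of all genes. Usp14 and Uchl5, the deubiquitinases that bind the 19S particle, had log2 ratios of 0.77 and 0.79 for ManGn and of 0.79 and 0.69 for fOS. Zfand2a, a stress-induced proteasome-binding factor, had 20.1 FPKM with ManGn and 17.6 with fOS, against 21.3 with mock and 5.82 with water. Its log2 ratio of 1.77 for ManGn over water thus went with a low water library, and that for fOS over mock was -0.27. Vcp, the ATPase that extracts ubiquitinated proteins, had log2 ratios of 0.93 for ManGn and 0.91 for fOS.

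The transcription factors of the list differed from each other. Nfe2l1, whose product induces proteasome genes when proteolysis is short, had 56.1 FPKM with ManGn and 40.9 with fOS, against 93.8 with mock and 87.1 with water. Both ligands were below both controls, with log2 ratios of -0.63 for ManGn and -1.20 for fOS. Nfe2l2 had 106.9 FPKM with ManGn and 112 with fOS, against 122 with mock and 57.5 with water, so that water was the low library. Its log2 ratio was 0.89 for ManGn over water, -0.13 for fOS over mock and 1.09 for mock over water. NFE2L1 is known to be regulated by protein processing, which FPKM do not measure.

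Inducers and partners of the immunoproteasome were mostly lower with ManGn than with water. Of 7 genes, 5 (Tap1, Tap2, Tapbp, B2m and Irf1) were at least 20% lower with ManGn than with water, beside 28.3% of all genes. Erap1 was the 1 at least 25% higher, beside 33.2%, and the median was -0.72. For fOS over mock 2 were lower (Tap2 and Irf1), a share near the 26.7% of all genes. There 1 was higher (Erap1), beside 21.6%, and the median was -0.15. For ManGn over mock 3 were lower, beside 23.2%, and 0 higher, beside 19.2%, with a median of -0.32. Irf1, a transcription factor that induces Psmb9 and Tap1, had log2 ratios of -0.75 for ManGn and -0.35 for fOS. B2m, the light chain of MHC class I, had log2 ratios of -0.72 and -0.22.

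**Figure D5:**
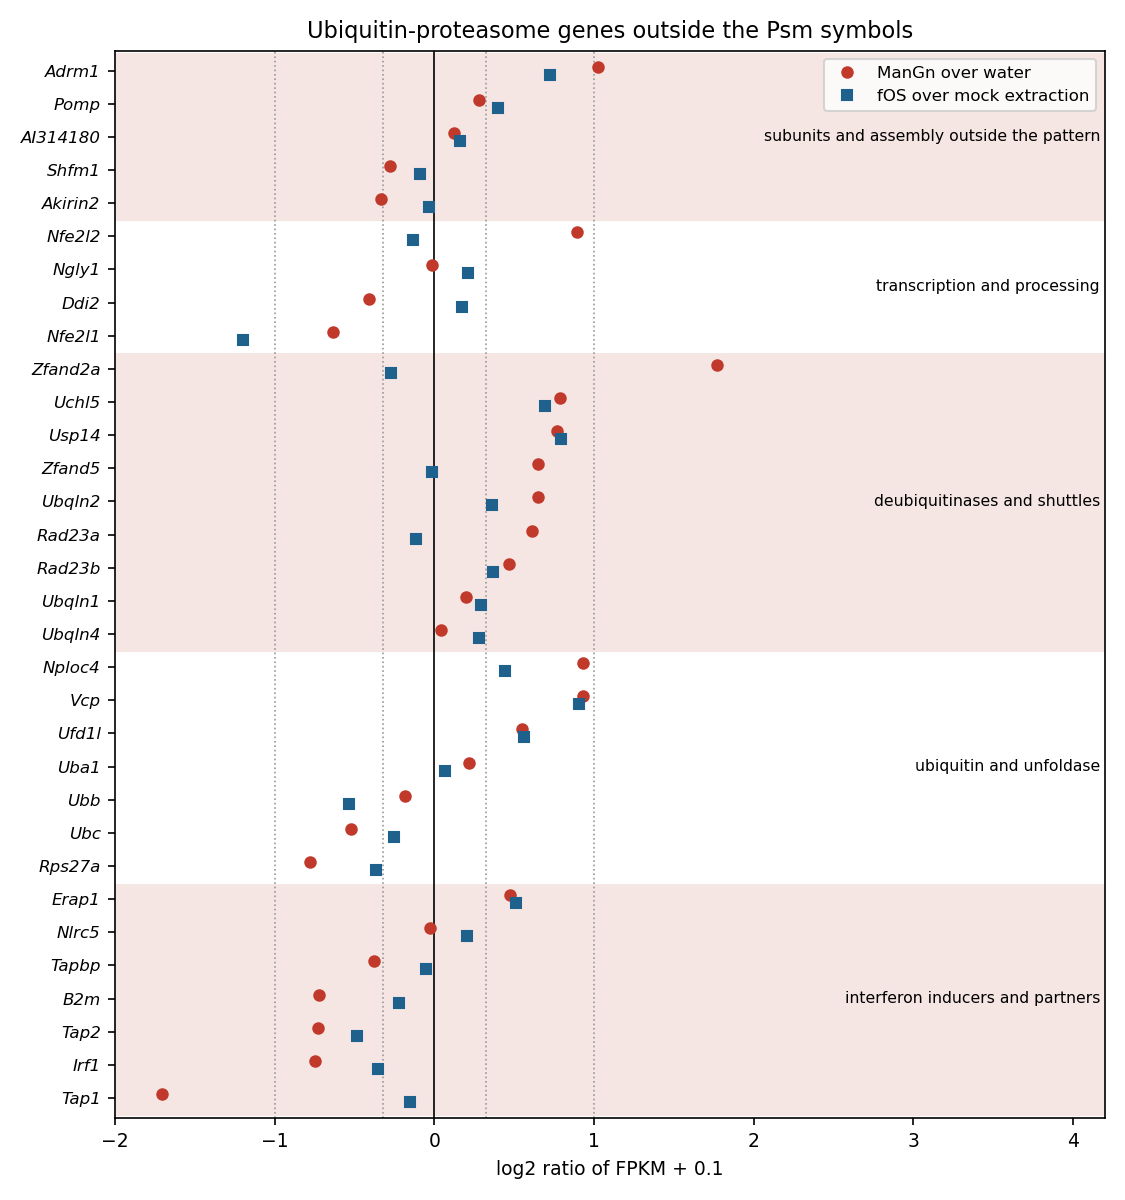
Log2 ratio of FPKM plus 0.1 for 32 genes without a Psm symbol, ManGn over water (red circles) and fOS over mock (blue squares), by list. The lists are of ubiquitin-proteasome genes and, in 1 list, of 7 inducers and partners of the immunoproteasome. Dotted lines mark 25% higher, 20% lower and 2-fold. Adrm1, Uchl5, Usp14 and Vcp lie right of 0 in both comparisons, while Nfe2l1 lies left in both, at -0.63 and -1.20.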

How the data were processed

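RNA-seq of 4 libraries was used, 1 per condition. The authors computed FPKM per gene with RSEM, as the submitters' processing notes state, and deposited them as 1 table; its version, the aligner, the gene annotation and the genome build were not given in the sources used here. Another deposited sheet repeats these values, and the remaining sheets hold the authors' own ratios and gene selections, which were not used. RSEM shares reads between similar transcripts, so members with close copies are uncertain.

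Log2 ratios were computed in Python 3.11.15 (numpy 2.4.6, pandas 2.3.3, scipy 1.17.1; figures with matplotlib 3.10.9) from FPKM plus 0.1, on genes of at least 1 FPKM in 1 of the 4 libraries. A gene was counted at 25% higher, 20% lower or 2-fold when it also had 1 FPKM in 1 of the 2 libraries compared; 2-fold is the threshold of the deposited sheets. The members and lists were chosen with earlier results of these data known, and some genes of the lists are not reported here and were left out of the lists' counts and medians. Named with values in every library were the immunoproteasome subunits and their counterparts, the regulators, the highest and lowest member of each role, the 3 highest and lowest ratios of each comparison and every member past 2-fold; other members are given by ratio or range. Depth was estimated from the steps between low FPKM with GENCODE M21 transcript lengths: 63.1 to 64.3% of low values lay within 0.1 of a whole read, so reads are estimates and no count model was run. Intervals are exact binomial. Promoters came from RefSeq, and motifs other than TGANNNNGC, like the split by level and length, were chosen after values were seen. The calculation of ratios and of depth was tested on simulated data. The simulation of depth used the same transcript lengths as the fit. It therefore does not cover a difference between these lengths and those the authors used. Alternatives were other pseudocounts, filters, scalings, the other control, and leaving out Psma8, Psmb11 and Psmc3ip.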

Additional observations from a re-analysis of the deposited data

How the results depend on the processing

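The control was the choice that mattered. With mock in place of water, the median log2 ratio for ManGn was 0.25 over the members and 0.32 over the 20S and 19S subunits. At least 25% higher were 18 members, beside 19.2% of all genes. At least 2-fold higher were 0 members in place of 8. Of all genes, too, fewer were 2-fold higher over mock than over water, where 9.44% were, so this drop was not confined to the members. The medians of the 19S chaperones (-0.012) and 20S chaperones (-0.042), and the ratios of Psmg1 (-0.14), Psmc3ip (-0.043) and Psmd9 (-0.012), changed sign. So did 3 members that differed from water by less than 25%: Psmd8 (0.45 over mock, -0.082 over water), Psme1 (-0.095 and 0.041) and Psma8 (0.030 and -0.011). With water in place of mock, the medians for fOS were 0.70 over the members and 0.74 over the 20S and 19S subunits. At least 2-fold higher were 14 members in place of 0, beside 14.1% of all genes in place of 2.67%. The ratios of Psmg1 (0.71 over water, -0.026 over mock), Psmg4 (-0.40 and 0.23), Psmd8 (-0.52 and 0.017), Psmb11 (-0.12 and 0.059) and Psmb1 (-0.015 and 0.043) changed sign. Scaling the libraries to the same upper quartile lowered the medians of mock over water to 0.20 and 0.21, with 13 members at least 25% higher (28.5% of all genes) and 5 at least 20% lower (30.9%). The other scalings gave 14 higher (29.9% and 29.5% of all genes) and 4 lower (29.5% and 29.8%). At 2-fold, 1 member in place of 2 was higher under each of the 3 scalings and with a pseudocount of 1. Without these changes 9.24% of all genes were. The cause was not tested. Under 2 other pseudocounts, no filter, a filter of 5 FPKM, 3 scalings and without Psma8, Psmb11 and Psmc3ip, the medians over the members for ManGn over water and fOS over mock moved by less than 0.1. None of the 3 scalings set the summed FPKM of the libraries equal.

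No paired analysis was possible because each condition has 1 library. Without replicates, differences between libraries cannot be told apart from differences between conditions. Reads limit the scarcest members: Psmb11 had as few as 46.3 estimated reads in a library.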
